A study of Mus musculus with 35 samples.

Results

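The simple epithelial keratins described here are 5 mouse genes, *Krt7*, *Krt8*, *Krt18*, *Krt19* and *Krt42*, chosen by name. All 5 were found among the 44853 genes of the induction table, and 4 of them, all but *Krt42*, among the 6275 genes of the siRNA table, which holds genes the authors called responsive. *Krt42* after *Oct4* knock-down was therefore not analysed here. The 35 RNA-seq libraries came from KH2 ES cells (C57BL/6 x 129/Sv) that carry a *Gata6* transgene switched on by doxycycline (Dox), and from the XEN line X10. ES cells grew in serum and LIF on mitomycin C-treated mouse embryonic fibroblasts, which were depleted by adsorption before lysis, and were sampled at 0 h without Dox and after 16, 24, 48, 72, 96 and 168 h in 1 µg/mL Dox, with 3 libraries per time. X10 is a wild-type CD1 line derived from the extra-embryonic endoderm and was grown without Dox and without LIF (2 libraries). In the knock-down experiment a *Gata6* clone of these ES cells received a control siRNA (siCTL) or an siRNA against *Oct4* (siOct4) by nucleofection and was plated into Dox for 48 h, with 6 libraries each. The study's methods call the libraries of a Dox time independent replicates, without saying whether they came from separate cultures or clones, so p-values there measure the spread between these libraries. XEN cells differ from the induced cells in strain, origin and medium as well as in state, and these cannot be told apart.

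Keratins build the intermediate filaments of epithelial cells. A filament needs a type II and a type I partner, and a chain that finds no partner is degraded. *Krt8* (type II) and *Krt18* (type I) form the founding pair of simple epithelia. They were named Endo A and Endo B in mouse endodermal cells, and appear early in the embryo, in trophectoderm and in extra-embryonic endoderm. *Krt7* (type II) is typical of ducts and of trophoblast, and *Krt19* is a short type I keratin without a tail domain. *Krt42* is a type I gene of rodents, related to *Krt17*, whose human counterpart is a pseudogene.

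In GENCODE M21 coordinates (mm10), *Krt7* (chr15:101411043-101430313, plus strand), *Krt8* (chr15:101996698-102004482, minus strand) and *Krt18* (chr15:102028180-102032027, plus strand) lie in the keratin cluster of chromosome 15. *Krt8* and *Krt18* are next to each other, pointing away from each other with 23.7 kb between them, although *Krt18* is a type I gene. *Krt19* (chr11:100140810-100148665, minus strand) and *Krt42* (chr11:100262882-100269871, minus strand) lie in the type I cluster of chromosome 11. *Krt17* (chr11:100256217-100261029, minus strand) lies 1.9 kb from *Krt42*.

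The stretches upstream of *Krt8* and *Krt18*, which rose together, and of *Krt42*, which fell, are shown because these genes carry the main contrast of the series. They are taken from RefSeq promoter windows on GRCm38.p6, which start 250 bases before the RefSeq start of the gene, and are cut where the GENCODE gene begins. They cover chr15:102004483-102004592 for *Krt8*, chr15:102027966-102028179 for *Krt18* and chr11:100269952-100270201 for *Krt42*, each read 5′ to 3′ on the strand of its gene. Capitals mark matches, on either strand, to a GATA word, which is AGATAA with either A or T allowed as its opening base and either A or G as its closing base, or to a SOX word, which is CCATTGT or, in the other form that was searched for, ACAAAGG.
Krt8: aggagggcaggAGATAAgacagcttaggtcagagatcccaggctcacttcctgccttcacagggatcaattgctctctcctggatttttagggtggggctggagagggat
Krt18: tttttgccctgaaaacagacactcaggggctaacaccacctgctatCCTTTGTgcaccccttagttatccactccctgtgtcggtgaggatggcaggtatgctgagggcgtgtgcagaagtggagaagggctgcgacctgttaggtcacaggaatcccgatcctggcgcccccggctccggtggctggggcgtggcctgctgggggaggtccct
Krt42: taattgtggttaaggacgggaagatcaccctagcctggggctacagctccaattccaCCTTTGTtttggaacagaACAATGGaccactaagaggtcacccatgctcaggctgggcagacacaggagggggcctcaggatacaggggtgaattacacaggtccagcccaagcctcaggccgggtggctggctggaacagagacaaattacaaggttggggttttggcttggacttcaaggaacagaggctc

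The *Krt8* stretch holds the GATA word AGATAA, which begins 239 bases before the RefSeq start. The *Krt18* window holds 1 SOX word and the *Krt42* window 2 SOX words, and none of the 250-base windows of *Krt7*, *Krt18* and *Krt42* holds a GATA word. Of 32851 RefSeq windows of the same length, 26.5% hold a GATA word and 7.92% a SOX word. The window of *Krt7* holds 4 GC boxes (GGGCGG), and 32.7% of all windows hold at least 1. The octamer ATGCAAAT (1.60% of windows) and TATAAA (12.4%) were found in none of the windows of these 4 genes. The matches are descriptions of the letters only.

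Expression is given in TPM (transcript abundance scaled to gene length and to the total of the library). The scale keeps no sequencing depth, so the counting error of low values is unknown. Differences were tested with limma on log2(TPM + 1), a scale that understates the change of low genes. A gene was called at a Benjamini-Hochberg adjusted p below 0.05 over all genes tested and a log2 difference larger than 1 (induction series) or 0.5 (siRNA libraries). As a check of the labels, *Gata6* rose from 0.264 ± 0.0978 TPM at 0 h to 134 ± 4.60 TPM at 16 h (SD, n = 3). *Pou5f1*, which encodes OCT4, was at 957 ± 183 TPM with siCTL against 331 ± 44.4 TPM with siOct4 (SD, n = 6) and was lower in 6 of 6 numbers. At 168 h, 13 of 13 primitive endoderm markers and 6 of 6 parietal endoderm markers were called higher than at 0 h, and 8 of 9 pluripotency markers lower. Over all genes tested, 22.6% were higher and 16.5% lower. At 0 h, 7 of the 13 and 1 of the 6 were under 1 TPM in every library, among them *Gata6*, also the transgene. These passed the filter, a mean of 1 TPM in any group, only through Dox groups or XEN cells. For such genes the filter itself favors a rise, so these counts partly reflect it. With siOct4, 2 of the 13 primitive endoderm markers were called lower and 0 higher (median log2 difference -0.60), and at an unadjusted p below 0.05 there were 8 lower and 0 higher. Of the 6 parietal endoderm markers 1 was higher and 1 lower (3 and 1 unadjusted), and of 7 pluripotency markers *Pou5f1* was called lower (2 lower and 0 higher unadjusted). With the library number as a block, a fit described with *Krt7*, the calls were 7 lower and 0 higher of the 13, 1 higher and 1 lower of the 6, and 2 lower (*Esrrb* and *Pou5f1*) of the 7. Of the 6264 genes tested with siOct4, 0.942% were called higher and 1.72% lower without the block, and 2.43% and 6.15% with it.

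During induction the 5 keratins took 4 different courses. *Krt8* and *Krt18* rose from the earliest time sampled and kept rising to 168 h. *Krt42*, by far the most abundant of the 5 in undifferentiated ES cells, fell to near 0. *Krt7* rose and fell again, with its highest mean at 72 h, and *Krt19* rose late and stayed below its level in XEN cells. In bulk RNA, fewer cells that express a gene and less of its RNA per cell cannot be told apart.

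**Figure D1:**
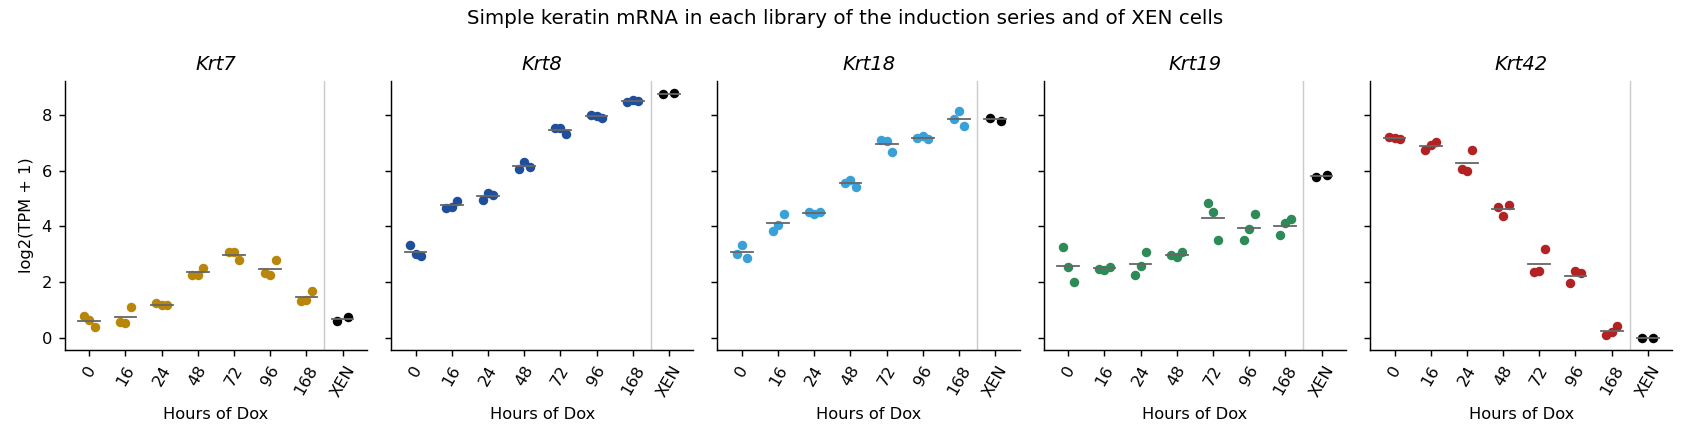
Each point is a library, plotted as log2(TPM + 1) against hours of Dox, with XEN cells in black right of the line and short bars at the group means. Krt8 and Krt18 climb from about 3 to about 8, Krt42 falls from about 7 to 0, Krt7 peaks at 72 h, and the 2 XEN libraries stand above all 21 ES cell libraries for Krt8 and Krt19.

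*Krt8*, the type II partner of *Krt18*, was at 9.09, 7.01 and 6.63 TPM in the 3 libraries at 0 h and at 24.2, 24.9 and 29.1 TPM at 16 h. The 2 groups did not overlap, and the log2 difference was 1.66 ± 0.10 (SE; limma adjusted p = 5.56e-10). Levels reached 65.1, 77.4 and 68.2 TPM at 48 h and 183, 185 and 158 TPM at 72 h. At 168 h the libraries held 353, 373 and 359 TPM, a mean 47.7 times that at 0 h (log2 difference 5.41 ± 0.10, adjusted p = 1.13e-18). Every group mean was above the one before, and no adjacent Dox groups overlapped. Between neighbours, the steps from 24 to 48 h (1.05) and from 48 to 72 h (1.31) were called, the former not without replicate 1 at 24 h or replicate 2 at 48 h (0.98 each). The steps from 72 to 96 h (0.49, adjusted p = 0.00409) and from 96 to 168 h (0.55, adjusted p = 0.000239) passed the p threshold but not the fold minimum. From 16 to 24 h the difference of 0.35 had an adjusted p of 0.0738.

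*Krt18*, the type I partner, was at 7.13, 9.02 and 6.30 TPM at 0 h, with a mean close to that of *Krt8*. It stood at 13.2, 15.7 and 20.6 TPM at 16 h, without overlap, and the log2 difference was 1.04 ± 0.15 (adjusted p = 9.49e-05). That value is close to the fold minimum: without replicate 3 at 0 h it was 0.93 and without replicate 3 at 16 h 0.87, and the gene was then not called. It reached 137, 133 and 101 TPM at 72 h and 230, 283 and 192 TPM at 168 h, a mean 31.4 times that at 0 h (4.79 ± 0.15, adjusted p = 1.61e-15). Its steps from 24 to 48 h (1.05) and from 48 to 72 h (1.41) were called, as for *Krt8*, the former not without replicate 2 at 48 h (0.99). Between 72 and 96 h the means were 124 and 143 TPM, and the log2 difference of 0.22 had a 95% interval from -0.10 to 0.55.

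*Krt42* was at 147, 144 and 139 TPM at 0 h. Its mean was 18.9 times that of *Krt8* and 19.2 times that of *Krt18* in the same libraries, on the per-length scale. The libraries held 106, 119 and 129 TPM at 16 h and 66.0, 63.1 and 105 TPM at 24 h, each group below the 3 libraries at 0 h. The log2 difference at 24 h, -0.91 ± 0.20, passed the p threshold (adjusted p = 0.00199) but not the fold minimum. It was called without replicate 3 at 24 h, the library with 105 TPM (-1.14). At 48 h the values were 24.7, 19.8 and 26.5 TPM, and *Krt42* was called lower than at 0 h (-2.56 ± 0.20, adjusted p = 3.21e-09). It went on to 4.20, 4.31 and 8.02 TPM at 72 h and 2.88, 4.33 and 4.02 TPM at 96 h, which overlapped. At 168 h it was at 0.0712, 0.162 and 0.345 TPM, 0.134% of its mean at 0 h (log2 difference -6.93 ± 0.20, adjusted p = 3.85e-16).

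*Krt7*, the other type II gene, was low throughout. Its means at 0 h, at 16 h and in XEN cells were under 1 TPM. It passed the filter, a mean of 1 TPM in any group, only through later Dox groups, which favors a rise. It was at 0.721, 0.548 and 0.325 TPM at 0 h and at 0.466, 0.446 and 1.17 TPM at 16 h, which overlapped. At 24 h it stood at 1.36, 1.24 and 1.27 TPM, a difference of 0.59 that among the alternatives run was called with a pseudocount of 0.1 (1.19) or without a fold minimum. It stood at 48 h at 3.83, 3.78 and 4.72 TPM and was called there (1.74 ± 0.17, adjusted p = 6.61e-08). The highest mean was at 72 h (7.50, 7.44 and 5.95 TPM), 13.1 times that at 0 h (2.38 ± 0.17, adjusted p = 4.28e-10). *Krt7* then stood at 4.06, 3.82 and 5.96 TPM at 96 h, which overlapped with 72 h, and at 1.48, 1.58 and 2.22 TPM at 168 h. From 72 to 96 h the difference of -0.52 passed the p threshold (limma adjusted p = 0.0459) but not the fold minimum. The fall from 96 to 168 h was called (-1.01 ± 0.17, adjusted p = 0.000107), but lay at the fold minimum and was not called without 96 h replicate 3 (-0.85), 168 h replicate 1 (-0.94) or 168 h replicate 2 (-0.97). At 168 h *Krt7* was still above 0 h in all libraries (0.85 ± 0.17, adjusted p = 0.000181), under the fold minimum. With a pseudocount of 0.1 in place of 1, that difference was 1.59 and called.

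*Krt19* was at 8.58, 4.77 and 2.97 TPM at 0 h, a wide spread. It stayed between 3.72 and 7.48 TPM in all 9 libraries at 16, 24 and 48 h, and the log2 differences to 0 h there were between -0.10 and 0.38, none past the test. At 72 h it was at 27.7, 22.0 and 10.3 TPM, above every earlier library, and was called (1.70 ± 0.32, adjusted p = 0.000130). Against 48 h the difference was 1.31 (adjusted p = 0.00512), and was not called in a fit of these 2 groups alone (adjusted p = 0.0505). It stayed at 10.5, 14.1 and 20.7 TPM at 96 h and 11.8, 16.5 and 18.2 TPM at 168 h (1.43 ± 0.32 against 0 h, adjusted p = 0.000544). The 72, 96 and 168 h groups overlapped and did not differ past the test (-0.33 from 72 to 96 h, 95% interval -1.01 to 0.34, and 0.07 from 96 to 168 h, 95% interval -0.61 to 0.74).

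At 72 h the same library, replicate 3, was the lowest for *Krt7*, *Krt8*, *Krt18* and *Krt19* and the highest for *Krt42*. Leaving it out changed no call of the 5 genes at 72 h against 0 h.

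Set against all 15057 genes tested, 2 of the 5 keratins were called higher at 16 h (*Krt8* and *Krt18*), where 1.97% of all genes were, and 0 lower, where 0.804% were. At an unadjusted p below 0.05, 0 of the 5 were lower at 16 h. At 24 h the counts were again 2 higher and 0 lower (1 at an unadjusted p below 0.05), against 3.24% and 2.44% of genes. At 48 h 3 were higher and 1 lower, against 9.14% and 7.26%. At 72 and 96 h 4 were higher and 1 lower, so that all 5 were called, where the shares of all genes were 14.7% and 11.5% (72 h) and 15.4% and 14.1% (96 h). *Krt7*, among those higher at 48, 72 and 96 h, had means of 0.531 TPM at 0 h and 0.587 TPM in XEN cells. It passed the filter only through Dox groups from 24 h on, so these counts partly reflect the filter. By 168 h the calls were 3 higher and 1 lower, against 22.6% and 16.5%. Of the steps between neighbouring times, none of the 5 was called by limma from 16 to 24 h, where 0.352% of genes were, although 3 were higher and 1 lower at an unadjusted p below 0.05. There were 4 calls from 24 to 48 h (5.56% of genes), 4 from 48 to 72 h (3.33%), none from 72 to 96 h (1.71%; 1 higher and 1 lower at an unadjusted p below 0.05) and 2 from 96 to 168 h (7.67%). These comparisons share the 0 h or neighbouring libraries.

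In XEN cells *Krt8* was at 429 and 437 TPM and *Krt18* at 236 and 219 TPM. *Krt19* was at 53.2 and 56.3 TPM, *Krt7* at 0.506 and 0.668 TPM, and *Krt42* was listed at 0 in both libraries. Against 0 h, *Krt8* (5.67 ± 0.11, adjusted p = 1.86e-18), *Krt18* (4.76 ± 0.17, adjusted p = 1.08e-14) and *Krt19* (3.21 ± 0.36, adjusted p = 1.67e-07) were called higher and *Krt42* lower. *Krt7* did not differ past the test (0.06, 95% interval -0.34 to 0.46). So 3 of 5 were higher, where 18.9% of all genes were, and 1 lower, where 18.7% were.

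Between XEN cells and cells at 168 h of Dox, *Krt19* was the 1 member called, 3.53 times higher in XEN cells (1.78 ± 0.36, adjusted p = 0.000465), where 4.73% of genes were higher and 9.17% lower. *Krt18* overlapped between them (-0.03, 95% interval -0.39 to 0.33). *Krt8* was higher in both XEN libraries than in the 3 libraries at 168 h (0.26 ± 0.11, adjusted p = 0.0620). *Krt7* was lower in XEN cells without overlap (-0.79 ± 0.19, adjusted p = 0.00205), under the fold minimum. The median log2 difference over all genes in this comparison was -0.14, and -0.03 after median-of-ratios rescaling, under which *Krt19* was still called.

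Up to 48 h the make-up of the keratin transcripts changed while their sum did not rise. Summed over the 5 genes, the libraries held 155 to 173 TPM at 0 h and 147 to 157 TPM at 48 h, while the share of *Krt42* went from 87.3% ± 2.16 to 15.8% ± 2.81 (SD, n = 3). *Krt8* and *Krt18* went from 4.59% ± 0.58 and 4.55% ± 0.78 of the sum to 46.6% ± 2.53 and 30.3% ± 2.25 over the same time. The sum then rose to 284 to 360 TPM at 72 h, 572 to 674 TPM at 168 h and 713 to 719 TPM in XEN cells. At 168 h *Krt8* and *Krt18* made up 59.1% ± 3.69 and 38.1% ± 4.17 of it, and *Krt42* 0.0321% ± 0.0251.

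Type II transcripts (*Krt7* and *Krt8*) amounted to 0.0517 ± 0.0074 of the type I transcripts (*Krt18*, *Krt19* and *Krt42*) at 0 h. The ratio was 0.193 ± 0.0091 at 16 h, 0.342 ± 0.0767 at 24 h and 0.976 ± 0.0935 at 48 h, and the 4 groups did not overlap. It stood at 1.24 ± 0.12 at 72 h, 1.55 ± 0.08 at 96 h, 1.48 ± 0.23 at 168 h and 1.54 ± 0.08 in XEN cells (SD, n = 2). Within these sums, the near-balance of both types at 48 h thus followed an excess of type I mRNA in ES cells that was almost all *Krt42*. The sums leave out other type I keratins, such as *Krt17*, with a mean of 37.6 TPM at 0 h and 7.69 TPM at 48 h. Between the partners alone, the ratio of *Krt8* to *Krt18* was 1.03 ± 0.25 at 0 h and between 1.43 and 1.73 in the group means from 16 to 168 h. These ratios carry no test.

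**Figure D2:**
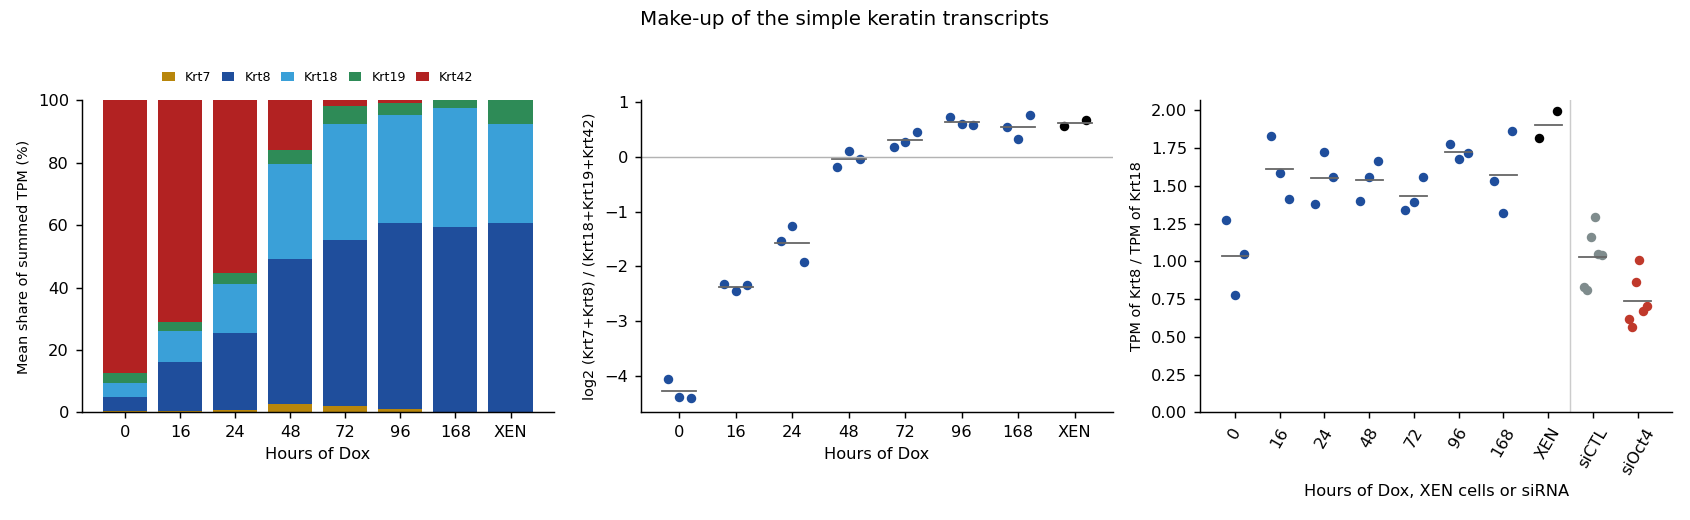
The left panel stacks the mean share of each gene in the summed TPM of the 5 genes, the middle panel gives the log2 ratio of type II to type I TPM per library, and the right panel the ratio of Krt8 to Krt18 TPM per library, siRNA libraries included, with short bars at the means. Krt42 gives way to Krt8 and Krt18 between 0 and 48 h, the type ratio lies around balance (0) at 48 h, with 2 of 3 libraries below it, and above it in all libraries from 72 h on, and the siOct4 points lie low in the right panel.

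With siOct4, *Krt8*, *Krt18* and *Krt19* were higher than with siCTL and no library of the 2 groups overlapped. *Krt18* ranged from 51.8 to 84.5 TPM (median 71.0) in siCTL and from 214 to 534 TPM (median 281) in siOct4 libraries. Its log2 difference was 2.20 ± 0.24 (SE, n = 6; limma adjusted p = 0.000297). *Krt8* ranged from 53.9 to 97.9 TPM (median 65.3) and from 165 to 375 TPM (median 203), a difference of 1.71 ± 0.22 (adjusted p = 0.00142). *Krt19* ranged from 2.53 to 8.04 TPM (median 4.28) and from 17.5 to 58.7 TPM (median 20.2), a difference of 2.42 ± 0.35 (adjusted p = 0.00169).

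*Krt7* ranged from 0.797 to 7.17 TPM (median 5.20) in siCTL and from 5.02 to 30.6 TPM (median 14.4) in siOct4 libraries, which overlapped, and it was not called (1.62 ± 0.48, adjusted p = 0.102). Within each number, however, it was higher with siOct4 in 6 of 6, by 2.68 to 6.30 times. Since libraries of the same number deviated together, a fit with the number as a block was also run. There the same difference of 1.62 had an SE of 0.18 and a limma adjusted p of 0.000340. Of 30 pairs of siCTL and siOct4 libraries with different numbers, 10 also correlated in their deviations above r = 0.1 (up to 0.459). Whether the 6 numbers are separate units was not tested. The block left the other 3 genes called. So 3 of the 4 measured members were called higher without the block and 4 with it, where 0.942% of the 6264 genes tested were called higher and 1.72% lower without the block, and 2.43% and 6.15% with it. Since that table holds only genes that respond to GATA6, these shares are not those of all genes. The median log2 difference over its genes was -0.12, and 0.01 after median-of-ratios rescaling, under which all 4 members were called.

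**Figure D3:**
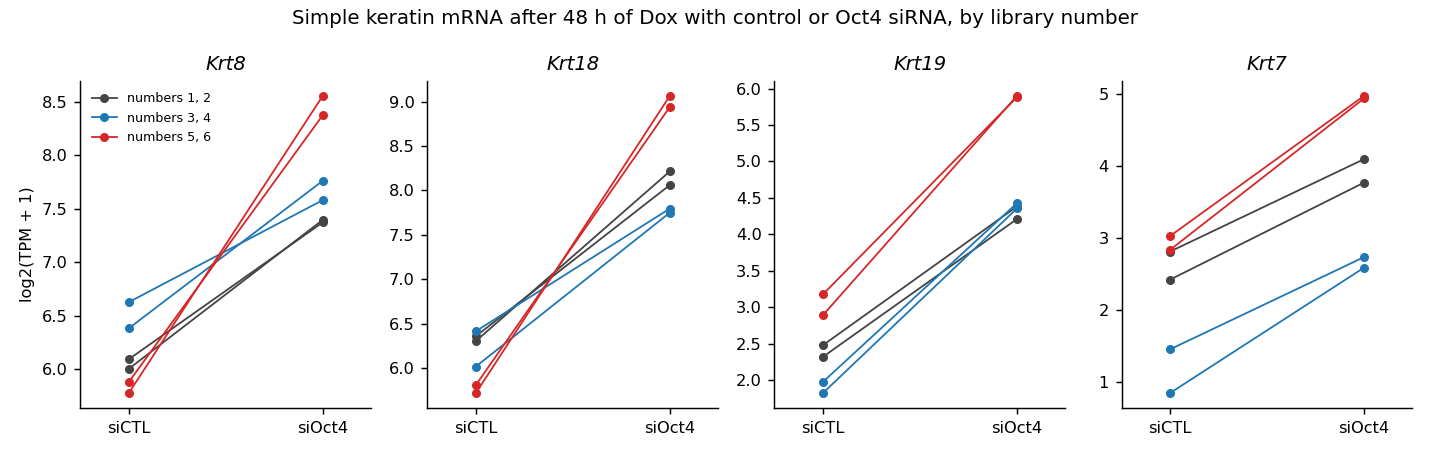
Each line joins the siCTL and siOct4 library of a number, plotted as log2(TPM + 1), colored by consecutive numbers. All 24 lines rise, the lines of numbers 5 and 6 rise most for Krt8 and Krt18, and for Krt7 the siCTL points of numbers 5 and 6 lie above the siOct4 points of numbers 3 and 4.

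The size of the response varied with the library numbers, a difference that was not tested. Libraries with consecutive numbers (1 and 2, 3 and 4, 5 and 6) resembled each other, and 10 of the 12 libraries were closest to that partner within their group. *Krt18* was 2.62 to 3.79 times higher with siOct4 in numbers 1 to 4, and 8.87 and 10.3 times in numbers 5 and 6. *Krt8* was 1.94 to 2.65 times higher in numbers 1 to 4, and 5.70 and 6.95 times in numbers 5 and 6. *Krt19* was 4.34 to 9.16 times higher, and its level with siOct4 was 58.0 and 58.7 TPM in numbers 5 and 6 against 17.5 to 20.5 TPM in the others. Fits within the sets, chosen after seeing the data, gave *Krt18* differences of 1.80 in numbers 1 and 2 (adjusted p = 0.00274), 1.56 in numbers 3 and 4 (adjusted p = 0.357) and 3.23 in numbers 5 and 6 (adjusted p = 5.39e-16), each with 2 libraries per siRNA. In numbers 3 and 4 none of the 4 genes was called by limma, although all 4 were higher at an unadjusted p of 0.00105 to 0.0131. When each set was averaged, leaving 3 values per siRNA, the differences were unchanged in size but no gene of the table was called (*Krt18* adjusted p = 0.0641, *Krt8* and *Krt19* adjusted p = 0.111 each; unadjusted p = 4.23e-05 for *Krt18*, 0.000224 for *Krt8*, 0.000478 for *Krt19* and 0.0263 for *Krt7*).

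The difference was larger for *Krt18* than for *Krt8*, and the ratio of *Krt8* to *Krt18* was lower with siOct4 than with siCTL in 6 of 6 numbers, by a factor of 0.642 to 0.780. The mean ratio was 1.03 ± 0.19 with siCTL and fell short of 1 with siOct4, at 0.738 ± 0.165 (SD, n = 6). In the induction series the ratio was at its lowest mean at 0 h and never below 1 in any library from 16 h on. The mean of *Krt8* in siCTL libraries, 70.5 TPM, was close to that of the 48 h libraries of the induction series, 70.3 TPM, and that of *Krt18* was 69.1 against 45.7 TPM. With siOct4 the means of *Krt18* (337 TPM) and *Krt7* (16.6 TPM) were above the highest Dox group mean of the series (235 and 6.96 TPM). In numbers 3 and 4 both genes lay below that mean, *Krt18* at 221 and 214 TPM and *Krt7* at 5.67 and 5.02 TPM. The mean of *Krt8* with siOct4 (241 TPM) was below its highest Dox group mean (361 TPM). That of *Krt19* (32.3 TPM) lay between its means at 72 h (20.0 TPM) and in XEN cells (54.7 TPM). The tables were made separately, so these levels stand side by side without a test.

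*Krt8* shared more sequence with another gene than the other members did. In 26.9% of the 50-base words of its longest GENCODE coding transcript, and 16.9% of the 100-base words, the same word occurred in *Krt8-ps*, a processed pseudogene on chromosome 7. Reads from these words can be split between both by the estimation. *Krt8-ps* was at 0.660 to 1.44 TPM at 168 h and at 7.96 and 9.53 TPM in XEN cells, small beside *Krt8*. For *Krt7*, *Krt18*, *Krt19* and *Krt42* the share of 50-base words found elsewhere was at most 0.720%, and *Krt42* shared 0.268% with *Krt17*.

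Of the 49 other keratin genes in the table, 43 stayed under 1 TPM in every group mean and 11 were at 0 in all 23 libraries. The 6 tested were *Krt10*, *Krt13*, *Krt14*, *Krt16*, *Krt17* and *Krt23*, all type I genes. *Krt17*, the neighbor of *Krt42*, was at 43.6, 43.5 and 25.7 TPM at 0 h and at 7.50, 6.49 and 9.08 TPM at 48 h (-2.12, adjusted p = 4.33e-08). At 168 h it was listed at 0, 0.0508 and 0.0406 TPM, and at 0 in XEN cells. *Krt23* did the opposite and late, with 0.264 to 0.660 TPM at 96 h, 14.6, 13.2 and 11.5 TPM at 168 h (3.53 against 0 h, adjusted p = 1.58e-13) and 14.7 and 17.8 TPM in XEN cells. Its mean at 0 h was 0.244 TPM. It passed the filter only at 168 h and in XEN cells, so the filter itself favors this rise. *Krt10*, *Krt13*, *Krt14* and *Krt16* had no group mean above 5 TPM and were not called at 168 h against 0 h. Of 9 stratified epithelium markers, 5 were tested at 168 h, with 2 higher and 1 lower (median log2 difference 0.84). Over all genes tested, 22.6% were higher and 16.5% lower. The 2 called higher, *Lor* and *Sprr1a*, had means of 0.146 and 0.0372 TPM at 0 h. They and *Krt14* passed the filter only through later Dox groups or XEN cells, so the count and the median partly reflect it. With siOct4, 0 of 2 stratified epithelium markers were called by limma with or without the block (0 unadjusted without it, 1 higher with it).

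**Figure D4:**
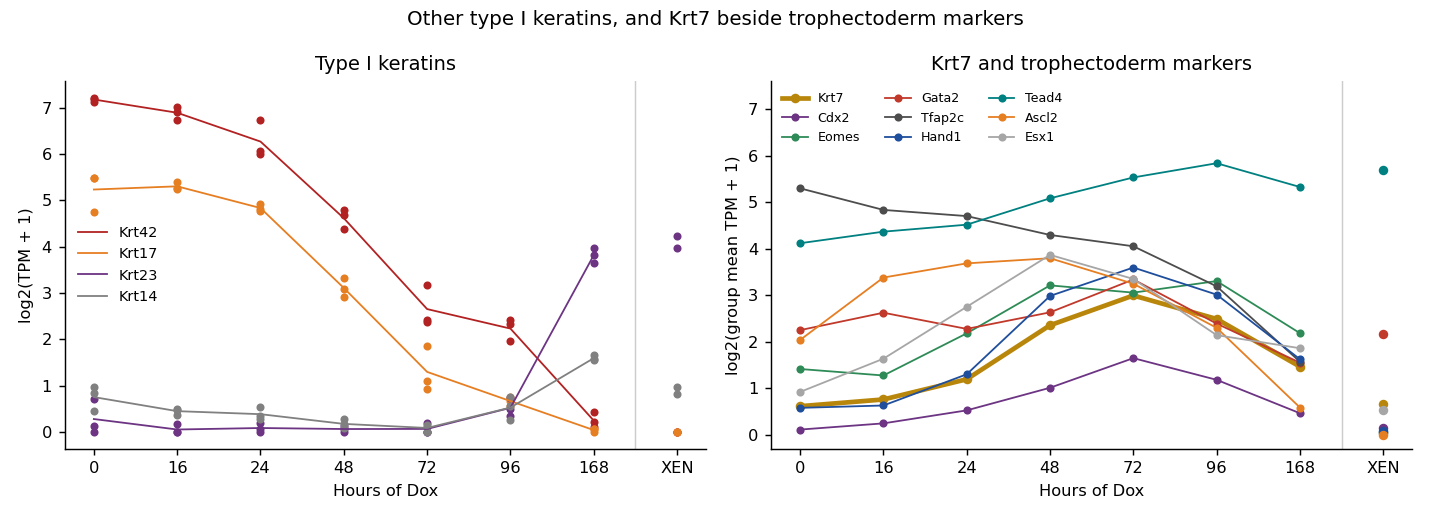
The left panel plots log2(TPM + 1) per library for 4 type I keratins, with lines through the group means, and the right panel log2(group mean TPM + 1) for Krt7 (thick line) and the 8 trophectoderm markers tested, both against hours of Dox with XEN cells right of the line. Krt42 and Krt17 fall together, Krt23 appears at 168 h, and Krt7 has its highest mean at 72 h, as do 3 of the 8 markers, while the other 5 have it at 0, 48 or 96 h.

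Genes that bind or anchor keratin filaments did not move as a block. Of 21 desmosome and cytolinker genes, 16 were tested, and at 168 h 4 were higher and 5 lower than at 0 h (median -0.69, against 0.09 over all genes). Over all genes tested, 22.6% were higher and 16.5% lower at 168 h. Desmoplakin (*Dsp*), which ties keratin filaments to desmosomes, went from 1.24 ± 0.12 to 17.6 ± 2.83 TPM (3.05, adjusted p = 1.24e-14) and was called from 24 h on. Epiplakin (*Eppk1*), a keratin-binding plakin, went from 3.95 ± 0.51 to 0.409 ± 0.130 TPM, the integrin chain *Itgb4* of hemidesmosomes from 6.70 ± 1.04 to 1.30 ± 0.60 TPM, and the desmosomal plaque gene *Pkp2* from 21.5 ± 3.18 to 6.74 ± 0.31 TPM, all called. With siOct4 none of the 8 tested was called by limma, and 2 were higher at an unadjusted p below 0.05. With the number as a block *Pkp2* was called higher, where 2.43% of the 6264 genes tested were higher and 6.15% lower. Of 6 keratin binding and chaperone genes tested, *Fam83h* and *Fbf1* were higher and the small heat shock gene *Hspb1* lower at 168 h (median 0.12), and none of 3 was called with siOct4 without the block (1 lower at an unadjusted p below 0.05), while *Hspb1* was called lower with it.

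Among epithelial adhesion and polarity genes, more were lower than higher at 168 h, with 2 of 14 tested higher and 6 lower (median -0.73). The shares over all genes tested were 22.6% higher and 16.5% lower. *Cdh1*, which encodes E-cadherin, fell from 142 ± 18.6 to 14.5 ± 2.40 TPM, the tight junction gene *Cldn4* from 94.6 ± 15.5 to 3.06 ± 0.61 TPM, the transcription factor gene *Grhl2* from 27.7 ± 2.27 to 0.203 ± 0.044 TPM and the polarity gene *Crb3* from 17.0 ± 0.66 to 2.86 ± 1.54 TPM, all called. None of 10 was called with siOct4 without the block (2 higher and 1 lower at an unadjusted p below 0.05), and with it *Cldn4* and *Crb3* were higher and *Elf3* lower. Of 12 other intermediate filament genes tested at 168 h, 4 were higher and 4 lower (median -0.14). *Lmna*, which encodes lamins A and C, rose from 53.8 ± 17.9 to 233 ± 42.3 TPM, while the neuronal filament genes *Ina* and *Nefh* fell and *Nefl* rose. *Nefl* was the 1 of 9 called with siOct4 without the block, lower (-1.21, adjusted p = 0.0115), and *Nefl* and *Nefm* were lower with it. The genes named here for the block were chosen after their values were seen. Of the 6264 genes tested with siOct4, 0.942% were called higher and 1.72% lower without the block, and 2.43% and 6.15% with it.

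Markers of other cell types moved with some of these genes. Of 8 trophectoderm markers tested, 7 were higher and *Tfap2c* lower at 72 h, the time of the *Krt7* peak (median 1.46, against 0.02 over all genes), and 1 was higher and 2 lower at 168 h. For 72 h the shares of all genes were 14.7% called higher and 11.5% called lower, and for 168 h 22.6% and 16.5%. *Cdx2*, *Hand1* and *Esx1* had means of 0.0812, 0.494 and 0.893 TPM at 0 h and passed the filter only through Dox groups. For such genes the filter itself favors a rise, so the count at 72 h partly reflects it. The summed level of all 12 listed markers, tested or not, was 56.1 to 70.3 TPM at 0 h, 105 to 112 TPM at 72 h and 52.8 to 55.4 TPM at 168 h. Its largest parts at 0 h were *Tfap2c* (mean 38.3 TPM) and *Tead4* (16.3 TPM), and *Tead4* stood at 45.2 TPM at 72 h. The highest Dox mean was at 72 h for 3 of the 8 (*Cdx2*, *Gata2* and *Hand1*), at 48 h for 2, at 96 h for 2 and at 0 h for 1, so that most peaked at another time than *Krt7*. *Cdx2*, named after its values were seen, was at 2.13 ± 0.09 TPM at 72 h. With siOct4, *Ascl2* (1.20, adjusted p = 0.0343) and *Gata2* (1.59, adjusted p = 0.0476) of 8 were called higher. Of the 6264 genes tested with siOct4, 0.942% were called higher and 1.72% lower. At an unadjusted p below 0.05, 5 of the 8 were higher. With the number as a block 4 were called higher, *Hand1* and *Tfap2c* besides, and 0 lower (1 lower unadjusted). The shares of the 6264 genes were then 2.43% higher and 6.15% lower. Of 7 visceral endoderm markers, 6 were higher at 168 h, where 22.6% of all genes were and the libraries differed widely. *Ttr* ranged there from 2.31 to 52.4 TPM, *Rbp4* from 1.29 to 38.8 TPM and *Apob* from 0.0608 to 5.78 TPM. The mean of *Rbp4* at 0 h was 1.34 TPM. Of the 7, 5 were under 1 TPM in every library at 0 h, with *Ttr*, *Apob* and *Hnf4a* among them. They passed the filter only through Dox groups or XEN cells, so the count at 168 h partly reflects the filter. With siOct4, 0 of 3 were called without the block (2 lower at an unadjusted p below 0.05) and 2 were lower with it (*Apoe* and *Hnf4a*). Of 10 fibroblast markers, 6 were higher at 168 h (median 1.22), where 22.6% of all genes were. Their summed level was 131 to 284 TPM against 37.7 to 114 TPM at 0 h. With siOct4, 0 of 5 fibroblast markers were called in either fit, also at an unadjusted p below 0.05. The part of trophectoderm-like cells or of feeder cells in the keratin values was not tested.

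The genes closest to each member were found by Pearson's r of log2(TPM + 1) over the 8 group means of the induction series among 11350 genes, as a description of points that share libraries. For *Krt7* they were *Hand1* (r = 0.990), a transcription factor gene of trophoblast giant cells, *Cdkn3* (0.988) and the amino acid transporter gene *Slc7a9* (0.988). *Hand1* went from 0.494 TPM at 0 h to 11.1 TPM at 72 h and 2.08 TPM at 168 h in the means. For *Krt8* they were *Ptpn9*, *Tlnrd1* and *Tpm4* (r = 0.997 each), and for *Krt18* *Mbd2* (0.999), *Tpm4* (0.998) and *Usp47* (0.998). *Tpm4*, a tropomyosin gene, went from 48.7 TPM at 0 h to 822 TPM at 168 h. For *Krt19* they were *Pomk* (0.988), *Rad18* (0.978) and *Gm49980* (0.978), and for *Krt42* *Gm3952* (0.998), *Zfp980* (0.997) and *Gm8935* (0.997). Among the members themselves r was 0.996 between *Krt8* and *Krt18*, -0.978 between *Krt18* and *Krt42*, and 0.408 between *Krt7* and *Krt8*.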

How the data were processed

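RNA was sequenced from polyA-selected, stranded, paired-end libraries. The authors aligned reads to mm10 with STAR and estimated gene levels with RSEM, and deposited TPM values, 1 column per library. The annotation and versions are not given in the sources used here, and the authors' methods state that outliers in a principal component analysis were omitted. The deposited siRNA table also holds group means and the authors' classes, which were not used. TPM were analysed as log2(TPM + 1) with limma 3.58.1 (trend and robust options, R 4.3.3), over genes whose mean reached 1 TPM in any group, in a single fit over all groups of a table (15057 and 6264 genes). A symbol on several rows of the induction table was kept once (44915 rows). The fits were tested on simulated data. The keratins and the gene lists were chosen with earlier results of these data known.

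Named were the 5 keratins, the other keratins tested, up to 4 genes per list with the largest called change at 168 h and 2 with siOct4, and the 3 genes of most similar pattern to each keratin. Of the siRNA libraries, same-numbered siCTL and siOct4 libraries correlated in their deviations from the group means (r = 0.236 to 0.707 in 6 of 6 numbers). Other pairs were at -0.06 on average, with 10 of 30 above 0.1 and a highest r of 0.459. The authors report 6 independent knock-downs and compared endogenous *Gata6* across them with a paired test. The number was taken as a pairing in the block fit. Alternatives were the pseudocount, the filter, median-of-ratios rescaling, the block, no fold minimum, fits of the compared groups only and leaving out each library. Genes were matched to GENCODE M21 and to RefSeq promoters, where 4 of 5 keratins had an entry.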

Additional observations from a re-analysis of the deposited data

How the results depend on the processing

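Counts of keratins called changed under these alternatives. Without a fold minimum, 3 were higher and 1 lower at 24 h, 4 higher at 168 h and from 48 to 72 h, 1 higher and 1 lower from 72 to 96 h, 2 higher from 96 to 168 h and 1 lower in XEN cells than at 168 h, where a pseudocount of 0.1 gave 2 lower. That pseudocount also gave 3 higher at 24 h and 4 at 168 h, with *Krt7* added, and the fit of the compared groups only gave 2 higher from 48 to 72 h, without *Krt19*. With siOct4, rescaling, the block and the fit within numbers 5 and 6 gave 4 higher. Leaving out each library in turn, the count ranged from 1 to 2 higher at 16 h, 0 to 1 lower at 24 h, 1 to 3 higher from 24 to 48 h and 1 to 2 lower from 96 to 168 h. With the consecutive numbers averaged, and within numbers 3 and 4, 0 were higher with siOct4; both were chosen after seeing the data. In the induction series, libraries of the same number correlated at 0.03 on average (other pairs -0.02), and the replicate block changed no call of a keratin there (*Krt8* at 168 h 5.41, *Krt42* -6.93). With siOct4 the block changed the call of *Krt7* alone among the keratins.

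Signs turned for uncalled differences near 0. Under rescaling, *Krt19* at 24 h was -0.0031, *Krt19* from 96 to 168 h -0.036 and *Krt18* in XEN cells against 168 h 0.13. Without 1 library, *Krt19* ranged from -0.40 to 0.24 at 16 h, from -0.26 to 0.37 at 24 h, from -0.086 to 0.33 from 16 to 24 h and from -0.15 to 0.31 from 96 to 168 h. *Krt7* ranged from -0.064 to 0.23 at 16 h and from -0.043 to 0.15 in XEN cells against 0 h, and *Krt18* from -0.16 to 0.11 in XEN cells against 168 h.

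Over all genes, no fold minimum raised the calls at 16 h from 417 to 1949 and at 168 h from 5887 to 11286, and a pseudocount of 0.1 to 674 at 16 h. With siOct4, 167 calls became 537 with the block, 297 with rescaling (48.5% of them higher, against 35.3%), 0 with the consecutive numbers averaged and 87 to 322 without 1 library. Fitting only the compared groups gave 17 calls from 72 to 96 h in place of 257. The depth behind low values such as *Krt7* and *Krt42* at 168 h is unknown.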
